A study of Mus musculus with 4 samples.

Results

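The formation of a vascular lumen, the open channel inside a blood vessel, was followed here through the RNA levels of 8 genes among 24873 listed: Rasip1, Arhgap29, Rap1b, Cdc42, Pard3, Itgb1, Rasa1 and Kdm8. They were chosen by name as regulators of lumen formation and cell polarity, and all 8 were found in the table of normalized counts and passed the filter on low values. CD31+CD45- cells were sorted from brain, and the mice carried VE-cadherin cre/ERT2 together with Mgp fl/fl. There were 2 control libraries without tamoxifen and 2 libraries after tamoxifen, each from 3 pooled mice. Tamoxifen was started at 10 weeks of age and given for 5 days at 75 mg/kg per day, with cells collected for RNA-Seq on day 9. Mice of both groups carried the same transgene and the same floxed Mgp alleles, so the groups differed in tamoxifen itself as well as in any deletion of Mgp that it starts. The Cre recombinase was driven by the VE-cadherin (Cdh5) promoter, which is active in endothelial cells (ECs). The sample labels name the sorted cells as tdTomato+ brain cells, whereas the design text names them by CD31 and CD45. The columns of the tamoxifen libraries carry the letter A, which is in no sample label and was read as the arteriovenous malformation that follows treatment, so the direction of every difference rests on that reading.

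A vascular lumen forms when neighbouring ECs build a shared apical surface, clear their junctions from it and let the cords between them open. RASIP1 binds the small GTPase RAP1 and the RhoGAP ARHGAP29, and the complex holds RHOA and actomyosin tension down. CDC42 and the polarity protein PAR3 (Pard3) set the apical and basal sides, and beta1 integrin (Itgb1) anchors the basal side to the matrix. RASA1 is a GTPase-activating protein for RAS whose loss of function is known from capillary and arteriovenous malformations in patients. KDM8, also called JMJD5, belongs to the JmjC domain proteins.

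The stretches upstream of 4 of these genes are shown because the study followed the transcription factors SNAI1 and SOX2 as a route to lumen genes. In that route the study proposes that they induce Cdh2, which in turn alters the lumen genes. Motifs upstream of the lumen genes are therefore no test of the route. These 4 genes also span the range from a deep to a small difference. They come from RefSeq promoters (GRCm38.p6 table, 250 bases before the start), were placed on GRCm39 by exact match, and are printed 5′ to 3′ on the strand of the gene without any annotated exon. Capitals mark the E-box CAGGTG bound by SNAIL proteins, the SOX motifs ACAAAG and ACAATG, and the ETS core GGAA, each on either strand.
Arhgap29, first promoter, chr3:121746655-121746834, plus strand: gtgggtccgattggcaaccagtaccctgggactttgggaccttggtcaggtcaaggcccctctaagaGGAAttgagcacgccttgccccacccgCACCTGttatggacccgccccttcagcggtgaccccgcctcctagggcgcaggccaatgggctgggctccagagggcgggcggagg
Cdc42, chr4:137085092-137085320, minus strand: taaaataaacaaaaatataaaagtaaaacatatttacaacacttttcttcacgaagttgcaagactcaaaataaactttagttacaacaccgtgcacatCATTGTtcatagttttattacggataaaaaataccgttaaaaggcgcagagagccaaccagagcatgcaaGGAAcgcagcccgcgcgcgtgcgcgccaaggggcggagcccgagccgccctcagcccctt
Kdm8, chr7:125043542-125043791, plus strand: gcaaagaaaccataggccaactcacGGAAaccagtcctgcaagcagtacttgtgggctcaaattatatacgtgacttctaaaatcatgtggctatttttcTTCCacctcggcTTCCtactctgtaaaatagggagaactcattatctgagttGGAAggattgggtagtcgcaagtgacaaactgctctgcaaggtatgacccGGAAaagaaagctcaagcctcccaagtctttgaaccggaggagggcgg
Pard3, second promoter, chr8:128025843-128026065, plus strand: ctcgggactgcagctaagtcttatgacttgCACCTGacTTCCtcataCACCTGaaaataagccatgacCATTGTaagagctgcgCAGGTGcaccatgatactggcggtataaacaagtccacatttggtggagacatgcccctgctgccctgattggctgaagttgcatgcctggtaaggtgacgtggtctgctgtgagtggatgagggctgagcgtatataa
The second Pard3 promoter held 3 matches to the E-box, a number reached by 0.247% of all 32851 promoters in the table. The first Pard3 promoter held no E-box, SOX motif or ETS core, and which of them these cells use was not measured. The first Arhgap29 promoter held 1 E-box, as did 17.2% of promoters with at least 1. No E-box was in the windows of Cdc42, Kdm8, Rasip1, Itgb1, Rap1b and Rasa1 or of the second Arhgap29 promoter. A SOX motif, present in 25.2% of promoters, was found in the windows of Cdc42, Itgb1 and Rasa1 and of the second Pard3 promoter. The ETS core is a short motif found in 93.4% of promoters with a median of 3 matches. It occurred 6 times in the window of Rasa1, 5 times in those of Kdm8 and Rasip1, 4 times in that of Itgb1, and at most 2 times in the others. The Rasip1 and Itgb1 windows and that of the first Pard3 promoter lie wholly within annotated exons and are not shown. These matches describe letters in a window and say nothing about binding.

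For all 8 genes, each tamoxifen library lay under each control library, but by very unequal amounts. Rasip1 and Arhgap29 fell to 13.3% and 16.8% of their control means. Rap1b, Rasa1, Itgb1, Cdc42 and Pard3 fell to between 51.4% and 59.3%. Kdm8 stood at 66.3% and did not pass the test. Passing means an adjusted p under 0.05 in limma on log2(normalized count + 1), with Benjamini-Hochberg adjustment over the 20485 genes tested, and called means that the log2 fold change also exceeded 1 in size. Among all genes tested, 39.2% showed the same separation toward lower levels, 25.5% passed as lower and 16.0% were called lower. Against these shares, 8 of 8 of the lumen genes did not overlap between groups, 7 of 8 passed as lower and 2 of 8 were called lower. Their median log2 fold change was -0.88, and that of all genes tested was 0.05. With 2 libraries in each group an exact permutation test of a single gene cannot go below a two-sided p of 0.333. Since these p-values rest on pooled mice, they measure the spread between pools.

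**Figure D1:**
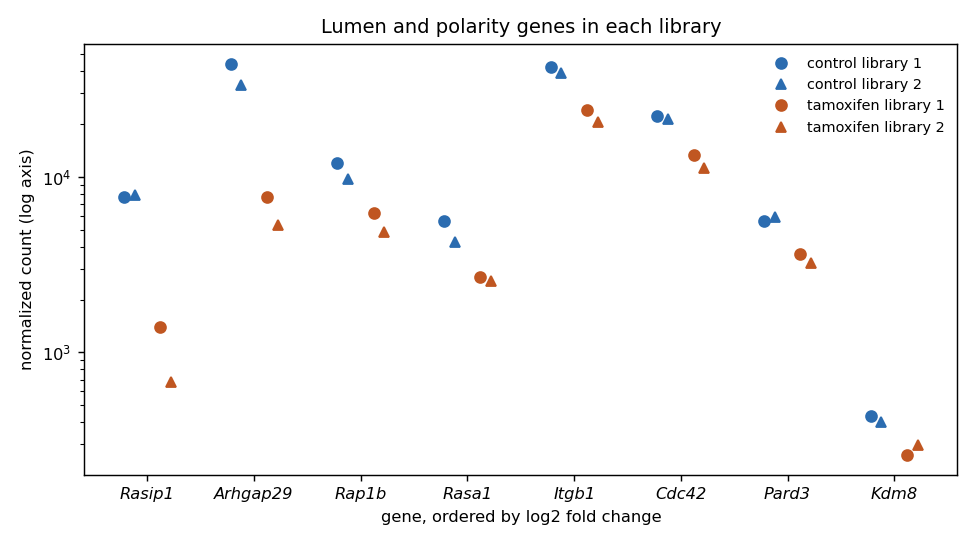
Normalized counts per library (log scale) of the 8 lumen formation and polarity genes, with a point for each control and tamoxifen library. The tamoxifen points of Rasip1, at 1389 and 678, lie far under the control points at 7673 and 7880.0, whereas those of Kdm8 lie close under its controls.

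The level of endothelial marker RNA differed between the groups, which bears on every value that follows. The 20 endothelial markers, Pecam1 and Cdh5 among them, were all called lower, with a median log2 fold change of -3.00. Their summed level was 1591820.0 to 1636350.0 normalized counts in control libraries and 127792 to 263734 in tamoxifen libraries. In bulk samples, fewer ECs and less of these RNAs per EC cannot be told apart. Markers of other cells moved the other way, with 6 of 6 fibroblast markers (2257 to 3213 in control, 59759 to 69745 in tamoxifen), 6 of 6 astrocyte markers (27117 to 31486, then 134790.0 to 285980.0) and 7 of 7 neutrophil markers (232 to 297, then 81197 to 108979) called higher. The same held for 6 of 6 pluripotency markers (58.9 to 90.1, then 34059 to 44096), 6 of 6 cell cycle genes and 5 of 5 erythroid markers. Also called higher were 5 of 6 oligodendrocyte, 4 of 6 neuronal and 3 of 6 microglial markers. Of pericyte and smooth muscle markers 2 of 10 were called higher, beside 28.6% of all genes tested. None of the cell type markers was at 0 in any library, and their part in the differences of the lumen genes was not tested. The floxed gene itself, Mgp, had 1094 and 1352 normalized counts in control and 945 and 909 in tamoxifen libraries, a log2 fold change of -0.39 that did not pass (limma, Benjamini-Hochberg adjusted p = 0.0986). With equal totals it turned to 0.08, and with quantile normalization it was -0.65 and passed (limma, Benjamini-Hochberg adjusted p = 0.0128). Reads per library on genes ran from 35387438 to 49799321. The least covered value of the 8 lumen genes, Kdm8 in the first tamoxifen library, still rested on 240 reads. Some other genes described below had far fewer, such as Pard6b with 9 and 13 reads in the control libraries.

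Rasip1 and Arhgap29 form the core of the complex that restrains RHOA. Rasip1 (chr7:45276142-45288531 on GRCm39, plus strand), whose expression is largely endothelial, had normalized counts of 7673 and 7880.0 without tamoxifen and of 1389 and 678 after it. The control libraries nearly coincided, at 7777 ± 146 (SD, n = 2), and the tamoxifen libraries averaged 1034 ± 503 and differed from each other by about as much as the lower one held. The log2 fold change was -3.00 ± 0.30 (SE), with a 95% interval from -3.70 to -2.30 and an adjusted p of 0.000136 by limma with Benjamini-Hochberg adjustment, a level 7.52-fold lower. Of the genes tested, 1.47% had a lower log2 fold change.

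Arhgap29 (chr3:121746190-121812175, plus strand) encodes the RhoGAP that acts on RHOA. It had 44071 and 33246 normalized counts in control libraries against 7684 and 5299 in tamoxifen libraries, or 38659 ± 7654 and 6492 ± 1687 (SD, n = 2). Its libraries were more widely spread than those of Rasip1 in the control group, yet the lowest control lay well over the highest tamoxifen value. The log2 fold change was -2.58 ± 0.25 (SE; 95% interval -3.16 to -2.01), 5.96-fold lower, with an adjusted p of 0.000114 (limma, Benjamini-Hochberg).

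Rap1b (chr10:117648424-117681972, minus strand) encodes one of the RAP1 GTPases to which RASIP1 binds. Its level was 11932 and 9662 in control libraries and 6249 and 4839.6 in tamoxifen libraries. The groups did not overlap, and the log2 fold change of -0.97 ± 0.20 (SE; 95% interval -1.42 to -0.51) passed with an adjusted p of 0.00392 (limma, Benjamini-Hochberg). It was the largest difference after those of Rasip1 and Arhgap29, at 51.4% of control, and the intervals of Rap1b and Arhgap29 were apart. The gap between the GTPase and its partners was therefore wider than the error of either estimate, although the difference between genes was not itself tested.

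The polarity genes Cdc42 and Pard3 differed by less. Cdc42 (chr4:137047002-137101278, minus strand), a small GTPase found in most cell types, had 22155 and 21208 normalized counts in control and 13340.4 and 11161 in tamoxifen libraries. Both groups were tight, at 21682 ± 669.7 and 12251 ± 1541 (SD, n = 2), and the log2 fold change was -0.83 ± 0.19 (SE; 95% interval -1.27 to -0.38; limma, Benjamini-Hochberg adjusted p = 0.00712). Pard3 (chr8:127790392-128338767, plus strand), the scaffold that gathers PAR6 and atypical protein kinase C, had 5634 and 5939 in control and 3656 and 3212 in tamoxifen libraries. The log2 fold change of -0.76 ± 0.15 (SE; 95% interval -1.11 to -0.40) passed with an adjusted p of 0.00397 (limma, Benjamini-Hochberg). Pard3 kept 59.3% of its control level, the most of the 7 genes that passed.

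Itgb1 (chr8:129411876-129460618, plus strand) is the beta1 subunit shared by many integrin heterodimers. It had 42181 and 38734 normalized counts in control and 24132 and 20370.0 in tamoxifen libraries. Its log2 fold change was -0.87 ± 0.23 (SE; 95% interval -1.39 to -0.34) with an adjusted p of 0.0121 (limma, Benjamini-Hochberg), the weakest support among the genes that passed. Rasa1 (chr13:85358526-85437670, minus strand) had 5631 and 4238 in control and 2701 and 2541 in tamoxifen libraries. Here the control libraries were the more spread pair, at 4934 ± 985 against 2621 ± 113 (SD, n = 2), and the log2 fold change of -0.90 ± 0.18 (SE; 95% interval -1.32 to -0.48) passed with an adjusted p of 0.00360 (limma, Benjamini-Hochberg).

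Kdm8 (chr7:125043794-125061454, plus strand) was the least abundant of the 8 genes and the only one that did not pass. Its values were 436 and 403 in control and 260.1 and 295 in tamoxifen libraries, so the groups did not overlap. The log2 fold change was -0.59 ± 0.24 (SE), with a 95% interval from -1.16 to -0.02 and an adjusted p of 0.0689 (limma, Benjamini-Hochberg). The interval runs from a fall larger than those estimated for Cdc42 or Pard3 to almost no difference.

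**Figure D2:**
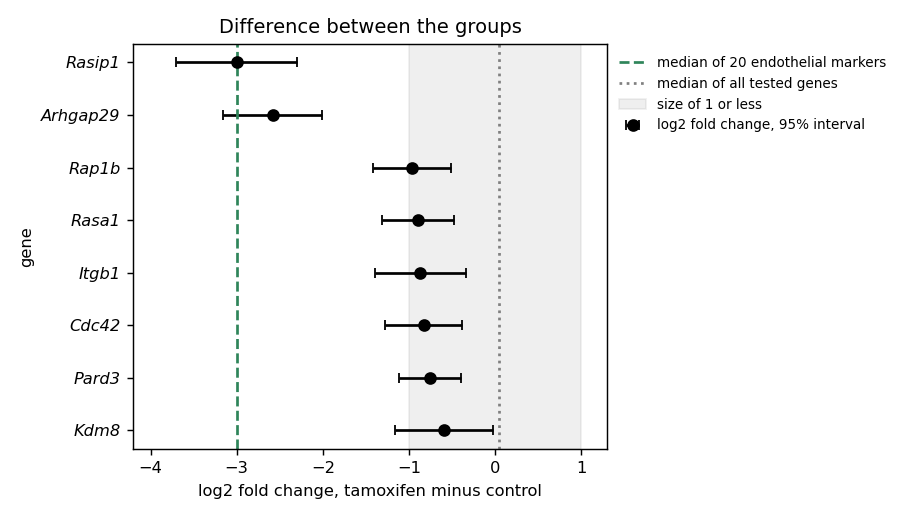
Log2 fold change, tamoxifen minus control, of the 8 genes, with the 95% interval of the limma fit and the medians of the 20 endothelial markers and of all tested genes as vertical lines and sizes of 1 or less shaded. Rasip1 at -3.00 and Arhgap29 at -2.58 sit near the endothelial line at -3.00, and the other 6 genes lie between -0.97 and -0.59.

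The order of the genes by level also changed between the groups. Per kilobase of merged exons, Itgb1 was the most abundant in control libraries at 6777 normalized counts per kb, followed by Cdc42 at 2965 and Arhgap29 at 2821, whose library ranges overlapped. Rasip1 followed at 1643, then Rap1b at 1082, Pard3 at 383 and Rasa1 at 358, which overlapped each other, and Kdm8 at 156. In tamoxifen libraries Itgb1 at 3727 and Cdc42 at 1675 still led, but Arhgap29 at 474 stood level with Rap1b at 556. Rasip1, at 218, overlapped with Pard3 at 227 and Rasa1 at 189.9, all over Kdm8 at 104. Rasip1 thus lay over Rap1b in the control libraries and under it in the tamoxifen libraries, whereas Arhgap29 lay over Rap1b in control and overlapped with it after tamoxifen.

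Because endothelial marker RNA differed, each level was also set against these markers within its own library, as the log2 level minus the mean log2 level of the 20 markers. For Rasip1 this relative level was -2.87 and -2.88 in control and -2.77 and -2.77 in tamoxifen libraries, a rise of 0.10 in the group mean. Rasip1 RNA thus stayed in nearly the same ratio to endothelial marker RNA. For Arhgap29 it was -0.35 and -0.80 in control against -0.31 and 0.19 in tamoxifen libraries, higher by 0.52 in the mean. The first tamoxifen library lay only just over the first control library.

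The other 6 genes were all higher relative to endothelial marker RNA after tamoxifen, as were 98.8% of all genes tested. Their rises were smaller than the median rise of all genes, which was 3.15. For Itgb1 the relative level went from -0.41 and -0.58 to 1.34 and 2.13, and for Cdc42 from -1.34 and -1.45 to 0.49 and 1.26. The GTPase Rap1b had -2.23 and -2.59 in control against -0.61 and 0.06 in tamoxifen libraries. Itgb1, Cdc42 and Rap1b encode proteins of adhesion and the cytoskeleton. For Pard3 the values were -3.31 and -3.29 against -1.38 and -0.53, for Rasa1 -3.32 and -3.77 against -1.82 and -0.87, and for Kdm8 -7.00 and -7.17 against -5.19 and -3.97. The rise of the group mean was 2.14 for Rap1b, 2.20 for Rasa1, 2.23 for Itgb1, 2.27 for Cdc42, 2.35 for Pard3 and 2.51 for Kdm8. Of the genes tested, 79.5% had a larger rise than Rap1b and 69.8% a larger rise than Kdm8, beside 98.5% for Rasip1 and 96.8% for Arhgap29. In all 6, as in Arhgap29, the second tamoxifen library gave the higher value. That library had the lower sum of endothelial markers, and a lower reference by itself raises such a ratio. These ratios are a description without a test, and how much of each RNA came from ECs in either group was not measured.

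**Figure D3:**
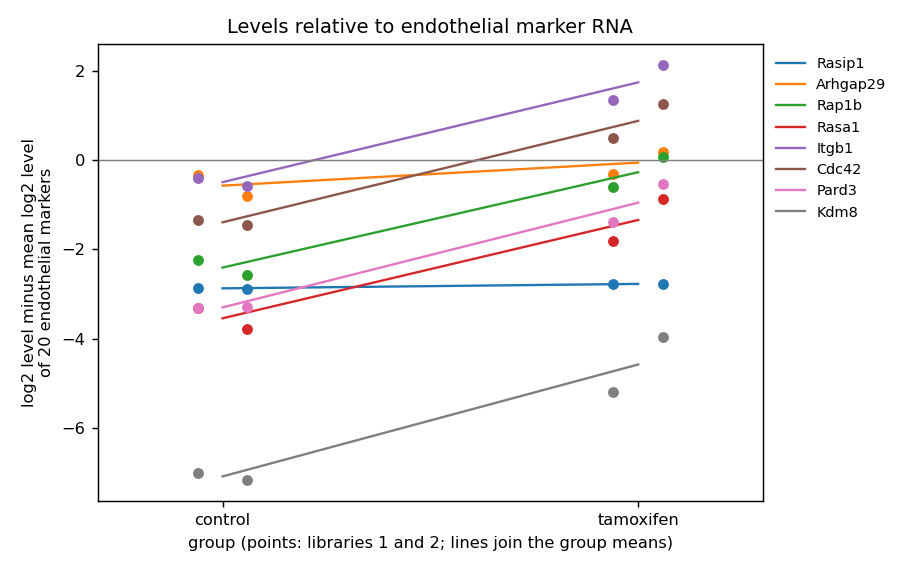
Log2 level of each of the 8 genes minus the mean log2 level of 20 endothelial markers in the same library, with points for libraries and lines joining the group means. The line of Rasip1 is nearly flat, from -2.87 to -2.77, while that of Itgb1 climbs from -0.50 to 1.74.

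For genes that share sequence, counts could be mixed. Rasip1 shares 1289 exon bases with Izumo1 on the same strand, a sperm protein gene with 39.7 and 43.8 normalized counts in control and 41.2 and 20.8 in tamoxifen libraries, a small level beside that of Rasip1. It also overlaps the antisense RNAs A030001D20Rik over 918 bases and Gm45437 over 222 bases. A030001D20Rik had 2560.0 and 1845 in control against 425 and 260.2 in tamoxifen libraries, a log2 fold change of -2.70 beside the -3.00 of Rasip1. Rasa1 shares 1988 exon bases with Ccnh on the opposite strand, whose level was 1085 and 979 in control and 1368 and 1289 in tamoxifen libraries. The library kit marks strand, but the strand setting used for counting is not given in the sources used here, so reads in these overlaps may be assigned to either gene. Cdc42 shares 128 exon bases and Rap1b 35 with antisense lncRNAs that are not listed in the table. No other annotated transcript matched a member over at least 100 bases at 95% identity.

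The scale chosen for the libraries mattered for the genes with moderate differences. The deposited size factors left the summed normalized counts of the tamoxifen libraries at 0.722 of those of the controls. With equal totals, which raised the median log2 fold change of all genes by 0.47, only Rasip1, Arhgap29 and Rap1b passed, and the log2 fold change of Pard3 shrank to -0.28 and that of Itgb1 to -0.40. With quantile normalization, which lowered that median by 0.28, Itgb1 had -0.06 and Cdc42 -0.18, and Kdm8 had -1.53 and passed (limma, Benjamini-Hochberg adjusted p = 0.00221). Rasip1 ranged from -3.52 to -2.48 and Arhgap29 from -2.85 to -1.91 over 14 alternatives and were called in each. All 8 log2 fold changes kept their negative sign in these alternatives. Leaving out 1 library also changed calls, since 2 of the 8 genes passed without the second tamoxifen library, 4 without the first, 5 without the first control library and 6 without the second. Without the second control library Rap1b and Rasa1 also exceeded a log2 size of 1, so that 4 genes were called.

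**Figure D4:**
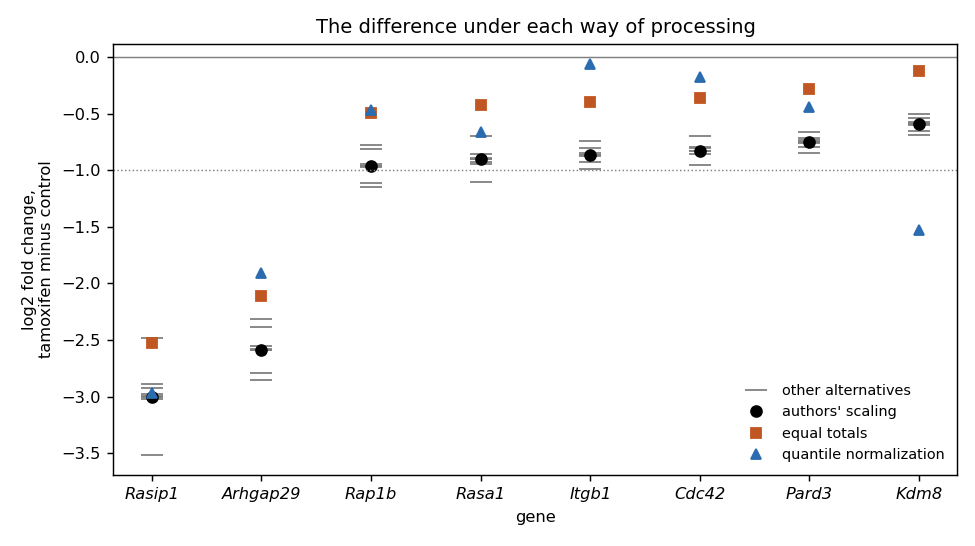
Log2 fold change of each of the 8 genes in the main fit and in the 14 alternative settings, with squares for equal totals, triangles for quantile normalization and dashes for the others. Rasip1 and Arhgap29 stay at or under -1.91 in every setting, and Itgb1 approaches 0 at -0.06 with quantile normalization.

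The genes around these 8 in their pathways were then described from lists of 168 genes, here called partners, with the route the study followed among them. Of these, 56 (33.3%) were called lower and 26 (15.5%) higher, against 16.0% lower and 28.6% higher among all genes tested. In either direction 48.8% were called, close to the 44.7% of all genes tested. On adjusted p alone, 5228 of the 20485 genes tested passed as lower and 6843 as higher. The median log2 fold change of the partners was -0.60, beside the 0.05 of all genes. The split depended on the scale. With equal totals 34 partners (20.2%) were called lower and 36 (21.4%) higher, against 8.97% and 35.2% of all genes tested. With quantile normalization the shares were 25.0% lower and 13.1% higher, against 26.9% and 22.5%, so the partners' excess of lower calls over all genes was absent on that scale.

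Of 27 genes of the RAP1, RASIP1 and RHOA module, 20 passed as lower and 3 as higher, with 16 and 3 called and a median log2 fold change of -1.03. Heg1, the receptor that recruits RASIP1 to EC junctions, had 57851 and 62369.5 normalized counts in control and 15121 and 10154 in tamoxifen libraries, a log2 fold change of -2.28. Rap1gap, which switches RAP1 off, rose from 47.9 and 129 to 981 and 1221, a log2 fold change of 3.78. It was 3.08 without the first control library and 4.48 without the second, and it did not pass without the first or the second tamoxifen library (limma, Benjamini-Hochberg adjusted p = 0.0732 and 0.0874). Its direction was the reverse of that of Rasip1, Arhgap29 and Rap1b in the same libraries. Myh9, the non-muscle myosin heavy chain and the most abundant gene of the list, was 1.98-fold lower (limma, Benjamini-Hochberg adjusted p = 0.0192), but its log2 fold change turned to 0.28 with quantile normalization.

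Of 24 CDC42 regulators and effectors, 18 passed as lower and 1 as higher, with 10 and 1 called and a median of -0.86, close to the -0.83 of Cdc42 itself. The exchange factor Fgd5, which is largely endothelial, fell by 2.98 on the log2 scale, from 31429.9 and 27202 to 5124 and 2681. The 1 gene that passed as higher was the kinase Pak1, an effector of CDC42 and RAC1. Pak1 rose by 2.82, from 327 and 363 to 2496 and 2397. Iqgap1, a scaffold that binds CDC42 and the most abundant of the list, fell by 1.11.

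The 23 other genes of the cell polarity complexes moved in both directions. In this list 9 passed as lower and 5 as higher, 5 were called in each direction, and the median was -0.17. Pard6b, a partner of PAR3, rose from 12.3 and 16.3 normalized counts to 674 and 541, a log2 fold change of 5.32, whereas Pard3 fell by 0.76. Tiam1, an exchange factor for RAC1 that binds PAR3, fell by 2.40 from 36702 and 32590.3 to 8382 and 5103.

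Among 25 partners and adaptors of beta1 integrin, 14 passed as lower and 5 as higher, 9 and 4 were called, and the median of -0.85 was close to the -0.87 of Itgb1. The laminin receptor subunit Itga6, the most abundant, fell by 1.75, and the adaptor Lims2 by 3.52. The subunit Itga7 rose from 333 and 456 to 1424 and 2950.4, a log2 fold change of 2.39. Of 16 genes of the apical surface and junctions, 10 passed as lower and 5 as higher, with 8 and 3 called and a median of -1.17. Podxl, the sialomucin that lines the apical membrane and keeps facing membranes apart, had 96405 and 106906 normalized counts in control and 18839 and 9529.7 in tamoxifen libraries, a log2 fold change of -2.92. The scaffold Nherf2 fell by 3.07, and Podxl2, a related sialomucin, rose by 2.28.

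Around Rasa1, the 23 RAS proteins, RasGAPs and their partners had a median of 0.21, with 10 passing as lower, 9 as higher and 6 called in each direction. Dab2ip, another RasGAP, fell by 2.29, from 30020.4 and 32117 to 8072 and 4999, and Dok1, an adaptor that recruits RASA1, rose by 3.63, from 35.6 and 51.3 to 606 and 486. Around Kdm8, the 26 other JmjC domain proteins had few called genes, with 9 passing as lower, 3 as higher, 2 called in each direction and a median of -0.24. Kdm2b rose to 258% of its control mean and Jmjd8 fell to 38.8%. Jmjd1c, the most abundant, differed by -0.57 (limma, Benjamini-Hochberg adjusted p = 0.0441). Its log2 fold change was -0.098 with equal totals and -0.0022 with quantile normalization, and it did not pass with no filter on low values or no trend (limma, Benjamini-Hochberg adjusted p = 0.0674 and 0.134).

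**Figure D5:**
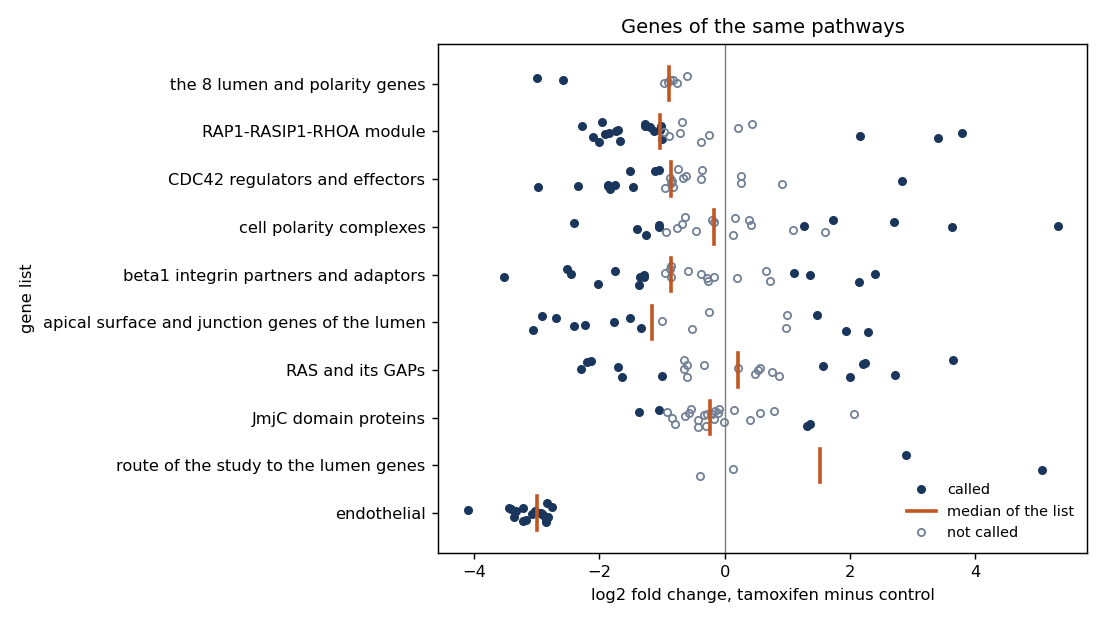
Log2 fold change, tamoxifen minus control, of each tested gene of the pathway lists, the 8 genes and the endothelial markers, with filled points for called genes, open points for the others and a bar at each list median. The RAP1, RASIP1 and RHOA list has its median at -1.03 and the apical list at -1.17, while the polarity list at -0.17 and the RAS list at 0.21 extend to both sides of 0.

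Of the route that the study followed toward lumen genes, Snai1 and Sox2 were called higher and Cdh2 and Mgp did not pass. In cultured human brain ECs, the study found Rasip1, Par3 and beta-integrin RNA raised by overexpressed Cdh2. Depletion of Cdh2 lowered them in such cells without MGP. In these mouse libraries Rasip1, Pard3 and Itgb1 RNA was lower after tamoxifen. Cdh2 was not forced here and endothelial marker RNA was lower too, so these values do not test that finding. Relative to endothelial marker RNA, Rasip1 was nearly level, and Pard3 and Itgb1 were higher, as were 98.8% of genes tested. Snai1, a repressor of epithelial and endothelial genes, had 64.4 and 72.6 normalized counts in control and 596 and 446 in tamoxifen libraries, a log2 fold change of 2.90. Sox2 had 139.7 and 181 against 5176 and 5511, a log2 fold change of 5.06. Cdh2, the gene of N-cadherin, had 5578 and 5925 in control and 5225 and 7548 in tamoxifen libraries, which overlapped (log2 fold change 0.13; limma, Benjamini-Hochberg adjusted p = 0.609). By real-time PCR and immunoblotting, the study reported Cdh2 increased in cerebral ECs of such mice after tamoxifen. In human brain ECs depleted of MGP, the study found JMJD5, the protein of Kdm8, to interact with SNAI1 and SOX2. That is a measure of protein binding in other cells than these. From it the study proposes that loss of MGP induces SNAI1, SOX2 and JMJD5, which together induce Cdh2. It also cites its earlier work, in which SOX2 raised JMJD5. In these mouse libraries Kdm8 RNA had a log2 fold change of -0.59 and did not pass. Rises of Sox2 and Snai1 stood beside those of the astrocyte, fibroblast and pluripotency markers given above, whose part in them was not tested.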

How the data were processed

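RNA was measured in 4 libraries, 2 per group, prepared with a stranded mRNA kit. Per the labels and the study's methods, STAR 2.7.10a (GRCm39) was the authors' aligner and DESeq2 1.36.0 gave their normalization. The deposited signal per gene is a read count divided by one factor per library, and dividing by the smallest step gave whole reads for 100% of values (tolerance 0.01 read). Groups were compared with limma 3.58.1 (R 4.3.3, eBayes with a trend) after adding 1 to each value and taking log2. Genes under a mean of 10 normalized counts were left out, and p-values were adjusted by Benjamini-Hochberg. Alternatives included edgeR 4.0.16 and DESeq2 1.42.0 on the recovered reads. On simulated data limma recovered 98 of 100 genes changed by a log2 size of 1.5, among 17753 genes. The simulation gave every gene the same dispersion, used the known library factors and changed few genes, as many up as down. In the libraries here 44.7% of genes were called, so this recovery is no measure of power in them. Exons came from GENCODE M39, and near-identical transcripts were sought with blastn 2.17.0. The genes and lists were chosen with earlier results of these data known. From each pathway list the highest and lowest called gene and the most abundant were named, with every gene of the study's route.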

Additional observations from a re-analysis of the deposited data

How the results depend on the processing

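The log2 fold changes of the 8 lumen genes were recomputed under 14 alternatives, which gave 112 values. Of these, 94 kept both direction and side of the threshold, 17 no longer passed, 1 newly passed, and the sign was negative in all. Rasip1 and Arhgap29 were called in every alternative. With equal totals 3 of 8 genes passed instead of 7, and 34 of the partners were called lower instead of 56. Of all calls, 35.9% were lower in the main fit, 20.3% with equal totals and 54.4% with quantile normalization, where Myh9 turned to 0.28. Leaving out each library in turn gave 2 to 6 genes passing and 2 to 4 called, and 43 to 58 partners called lower and 14 to 30 called higher. The lone library of a group was then assumed to vary like the other pair. Of the lumen genes, Itgb1, Cdc42, Pard3, Rap1b and Rasa1 each lost significance without at least 1 of the libraries, as did Rap1gap, Myh9, Podxl2, Itga7, Iqgap1, Gm45437 and Jmjd1c. The cause was not tested. On the recovered reads, edgeR and DESeq2 each passed 7 of the 8 genes and called 2. With a replicate block, 7 genes passed, 2 were called, and 56 partners were called lower and 28 higher. The numbers were not taken as a pairing, since no source says that they mark a shared litter, batch or day. Deviations of libraries with the same number correlated at 0.0251 over genes, which cannot settle whether libraries were paired. For the 8 lumen genes, with at least 240 reads in each library, counting error is small and the 2 pools per group set the precision. It is larger for partners with few control reads, such as Pard6b with 9 and 13 and Dok1 with 26 and 41. With 5 instead of 1 added to each value, the log2 fold change of Pard6b was 4.99 and that of Dok1 3.52.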

Other observations

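Close relatives of the lumen genes, named here after their values were seen, did not all move with them. Rap1a, the other RAP1 gene, fell by 1.03 on the log2 scale, from 2934 and 2796 normalized counts in control to 1540.1 and 1279.6 in tamoxifen libraries, beside the fall of 0.97 for Rap1b. Radil, a RAP1 effector related to RASIP1, rose from 23.3 and 50.1 to 454 and 301, a log2 fold change of 3.40, in the direction opposite to that of Rasip1. Rhoj, a GTPase close to CDC42 with largely endothelial expression, fell by 2.34, from 8659 and 7980.2 to 1720.0 and 1562. Rhoa, the GTPase on which ARHGAP29 acts, fell by 0.89, and its relatives Rhob and Rhoc by 1.91 and 1.28. Ubiquitous Rac1 fell by 0.95. Falls of this size depend on the scale, since Rasa1, Itgb1 and Cdc42 did not pass with equal totals, and these relatives are not given on that scale.

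The partners of PAR3 differed in direction. Pard3b, its paralog, fell from 1182 and 1233 normalized counts to 581 and 579. The atypical protein kinase C genes rose, Prkci from 2505 and 2344 to 6424 and 5291 and Prkcz from 79.4 and 82.6 to 510.5 and 553. Crb2, an apical determinant, rose by 3.62. Pard6a and Pard6g overlapped between groups, with log2 fold changes of 0.13 and 0.16. Of the membrane linkers, Msn fell by 1.34, and Ezr rose by 1.94 from 2945 and 3346 to 11311 and 12816. Among RasGAPs, Rasa3 rose by 1.99, and Rasa2 overlapped between the groups with a log2 fold change of 0.53.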
